A study of Mus musculus with 20 samples.

Results

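The Polycomb group genes described here are 10 genes chosen by symbol as subunits of the Polycomb repressive complexes: Ezh1, Ezh2, Eed, Suz12 and Jarid2 of PRC2, and Ring1, Rnf2, Bmi1, Pcgf6 and Rybp of PRC1. All 10 were found by gene identifier among the 34937 genes counted in each embryo. The data are RNA-seq counts of 19 single 8-cell mouse embryos collected at embryonic day 2.5, and the comparison asks how the transcripts of these subunits responded when the oocyte lacked G9a, the H3K9 methyltransferase encoded by Ehmt2. The 9 control embryos (Ehmt2Cntr) came from Ehmt2F/+ mothers and the 10 maternally depleted embryos (Ehmt2Mat) from Ehmt2F/- mothers. Mothers of both groups carried Zp3-Cre, a transgene active in growing oocytes, so that the floxed allele was recombined in the germ line of the controls too, and both were mated to Ehmt2+/- males on a mixed genetic background. Of the controls, 3 were zygotic +/- (embryos 1, 3 and 10) and 6 were +/+. Of the Ehmt2Mat embryos, 5 were zygotic -/- (embryos 1, 4, 5, 7 and 9) and 5 were +/-, with the functional copy from the father. No zygotic genotype other than +/- occurred in both groups, and control embryo 4 was not analysed here.

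Polycomb complexes keep genes silent by modifying histones. In PRC2, Ezh2 or its paralogue Ezh1 methylates histone H3 at lysine 27 (H3K27), Suz12 and Eed form the core that makes the enzyme active, and Jarid2 is an accessory subunit that helps to bring the complex to chromatin. In PRC1, Ring1 or Rnf2 ubiquitinates histone H2A, Bmi1 is a PCGF partner of the canonical complex, and Pcgf6 and Rybp belong to variant complexes. H3K27 methylation laid down in the oocyte is inherited by the preimplantation embryo, where it silences the maternal allele of a few imprinted genes.

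Jarid2 and Ezh2 transcripts were lower in Ehmt2Mat embryos, and no subunit was called higher. Jarid2 was 2.84-fold lower and Ezh2 1.62-fold lower than in controls (edgeR quasi-likelihood test, Benjamini-Hochberg adjusted p = 0.00517 and 0.0117). Suz12 had a fold change of similar size to Ezh2 and did not pass the test (log2 fold change -0.74, adjusted p = 0.0727), and the other 7 subunits did not pass it either. All 10 subunits passed the filter on low counts. Beside the 2 of 10 subunits called, both lower, stand 9.35% of the 11754 tested genes called in either direction at an adjusted p under 0.05, 4.98% of them lower and 4.37% higher in Ehmt2Mat. Because each library is a whole embryo, fewer cells that express a gene and less RNA per cell cannot be told apart.

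The promoter windows of Ezh2, Suz12 and Jarid2 are shown because these 3 subunits had the most negative fold changes. Each holds 300 bases of GRCm38.p6 from RefSeq, 250 before and 50 after the transcription start, on the strand of the gene: chr6:47594981-47595280 (minus strand) for Ezh2, chr11:79992856-79993155 (plus strand) for Suz12, and chr13:44730524-44730823 (plus strand) for Jarid2. Capitals mark every match, on either strand, to the E2F motif written as TTTCCCGC or TTTGGCGC and to the CCAAT box written as CCAAT.
Ezh2: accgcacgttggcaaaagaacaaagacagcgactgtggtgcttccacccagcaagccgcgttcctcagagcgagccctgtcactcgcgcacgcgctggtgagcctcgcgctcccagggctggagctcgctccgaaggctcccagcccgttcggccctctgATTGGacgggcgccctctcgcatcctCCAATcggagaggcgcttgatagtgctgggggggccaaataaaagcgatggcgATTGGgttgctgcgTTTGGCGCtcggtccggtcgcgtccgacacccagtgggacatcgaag
Suz12: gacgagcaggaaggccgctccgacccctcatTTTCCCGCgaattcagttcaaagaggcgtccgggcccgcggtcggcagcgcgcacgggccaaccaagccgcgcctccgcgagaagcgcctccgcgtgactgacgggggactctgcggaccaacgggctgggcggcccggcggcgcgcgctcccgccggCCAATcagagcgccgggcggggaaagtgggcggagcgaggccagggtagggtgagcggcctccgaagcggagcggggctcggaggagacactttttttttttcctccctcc
Jarid2: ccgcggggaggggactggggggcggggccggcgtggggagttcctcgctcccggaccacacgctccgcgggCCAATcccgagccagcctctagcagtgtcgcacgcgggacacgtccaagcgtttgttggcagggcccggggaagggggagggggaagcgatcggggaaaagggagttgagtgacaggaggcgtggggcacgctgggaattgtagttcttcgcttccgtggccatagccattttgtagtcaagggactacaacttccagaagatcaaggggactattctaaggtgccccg
The Ezh2 window held 1 E2F match and 3 CCAAT boxes, the Suz12 window 1 E2F match and 1 CCAAT box, and the Jarid2 window 1 CCAAT box and no E2F match. No match overlapped another. Of all 32851 promoter windows in the table, 1.56% held an E2F match and 37.4% a CCAAT box. These windows were not matched to the subunits in base content. Their median share of G and C was 52.7%, against 54.7% (Eed) to 74.0% (Ring1) in the subunits' windows. A link between motifs and fold changes was not tested. Windows were listed for 9 of the 10 subunits. Those of the other 6 held no E2F match, and Eed was the only one of them with a CCAAT box. Jarid2 had a further start with a window at chr13:44731021-44731320, which held 1 CCAAT box. The E-box CACGTG occurred once in the Bmi1 window and in 7.15% of all windows, and the ETS motif CCGGAAG occurred in none of the subunits' windows and in 8.86% of all. The windows of all listed subunits were rich in CpG, against a median of 7 CpG dinucleotides over all windows. Ezh2 had 31, Suz12 41 and Jarid2 24. Among the subunits not shown, Ring1 had 37, Rnf2 30, Ezh1 and Bmi1 23 each, Pcgf6 22 and Eed 17.

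Total counts per embryo ranged from 12985149 to 30053248 in controls and from 8231646 to 30602434 in Ehmt2Mat, and 3 counts corresponded to between 0.0911 and 0.364 CPM (counts scaled to a library of 1e6, after TMM normalization). Ehmt2 mRNA itself was between 66.6 and 253 CPM in controls (median 133) and between 58.7 and 159 CPM in Ehmt2Mat (median 94.9), with overlapping groups and no call (log2 fold change -0.47 ± 0.24 SE, adjusted p = 0.233). The counts add up all exons of Ehmt2, so exons outside the deleted part also contribute and this level does not check the labels. Markers of the 8-cell embryo (6 genes) summed to 753 to 1404 CPM in controls and 752 to 1443 CPM in Ehmt2Mat, but 3 of them were called: Tead4 and Tfap2c were higher (log2 fold change 0.90 and 0.75, adjusted p = 0.0046 and 0.0183) and Klf5 was lower (-1.49, adjusted p = 0.000486) in Ehmt2Mat. Of 8 cumulus and granulosa markers, Amh, Foxl2, Fshr, Has2 and Ptx3 were at 0 in every embryo, and the list summed to at most 0.127 CPM in controls and 68.8 CPM in Ehmt2Mat. The list of 4 oviduct markers moved with the group, from 0.09 to 386 CPM (median 2.56) in controls and from 9.68 to 2857 CPM (median 104) in Ehmt2Mat. Ovgp1, a glycoprotein secreted by the oviduct, carried nearly all of it (log2 fold change 3.41, adjusted p = 0.0926). The highest embryo had 3.27 CPM of Foxj1, 27.4 CPM of Pax8 and 28.0 CPM of Wt1. Whether the Ovgp1 reads came from oviduct cells or from the embryo was not tested. The oocyte list summed to 46.9 to 305 CPM in controls and 117 to 381 CPM in Ehmt2Mat, and 1 of its 7 genes, Oosp1, was higher in Ehmt2Mat (log2 fold change 2.70, adjusted p = 0.00277). The 6 blood markers also moved with the group in their median, with sums from 0.0 to 25.4 CPM (median 0.232) in controls and from 1.40 to 12.7 CPM (median 6.47) in Ehmt2Mat. The part of these lists in the subunit differences was not tested beyond the fit without embryos high in Ovgp1 given with the PRC2 results.

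**Figure D1:**
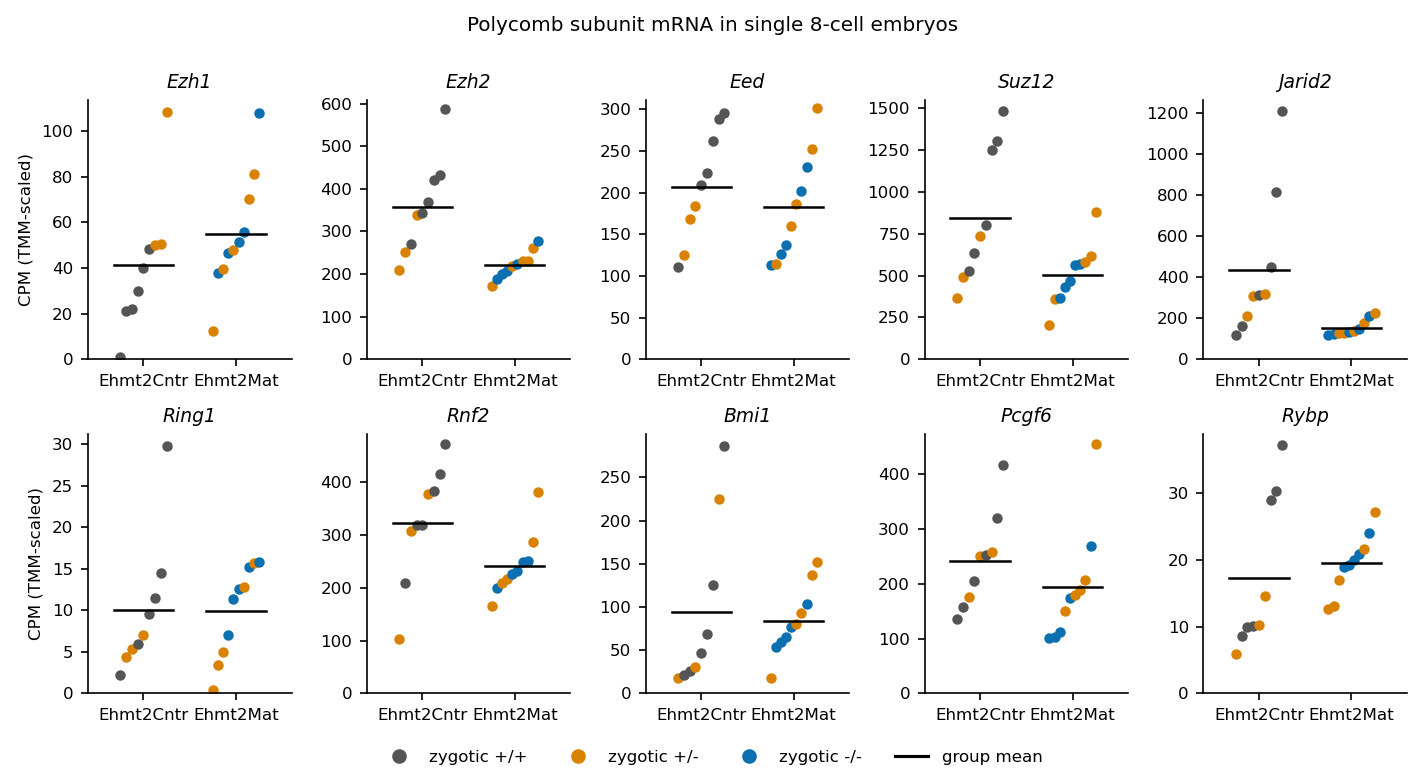
CPM of the 10 Polycomb subunits in each of the 19 embryos (points, linear axes starting at 0), with Ehmt2Cntr and Ehmt2Mat side by side, colours for the zygotic genotype and bars for group means. All 10 Ehmt2Mat embryos lie below the control median for Ezh2 (342 CPM) and for Jarid2 (312 CPM).

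Ezh2, the main H3K27 methyltransferase of dividing cells, was measured in controls at 210 CPM in the lowest embryo, 342 CPM in the median and 587 CPM in the highest. In Ehmt2Mat the lowest embryo had 172 CPM, the median was 221 CPM and the highest embryo had 278 CPM. The groups overlapped, but all 10 Ehmt2Mat embryos were under the control median and 6 of 9 controls were above every Ehmt2Mat embryo. The log2 fold change was -0.69 ± 0.17 (SE, 95% confidence interval -1.05 to -0.34). The difference of means on the log2(CPM + 1) scale was -0.64, with an exact two-sided permutation p of 0.00077 over all 92378 splits of the embryos, before any adjustment. Ezh2 shares 174 exon bases with Gm26625 on the opposite strand, and strand was not used in counting, but Gm26625 had mean levels of only 6.44 and 5.02 CPM in the control and Ehmt2Mat groups.

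Jarid2, the accessory subunit, was at 118 CPM in the lowest control, 312 CPM in the median and 1207 CPM in the highest. In Ehmt2Mat the values ran from 116 CPM through a median of 136 CPM to 226 CPM. Control embryos 6 and 7, with 813 and 1207 CPM, stood highest, whereas control embryos 9 and 2, with 118 and 161 CPM, were within the range of Ehmt2Mat. As for Ezh2, 6 of 9 controls exceeded every Ehmt2Mat embryo and all 10 Ehmt2Mat embryos were below the control median. The log2 fold change was -1.51 ± 0.33 (SE, interval -2.18 to -0.83), and the exact two-sided permutation p on log2(CPM + 1) was 0.00214, before any adjustment. Without control embryo 7 the log2 fold change of Jarid2 was -1.14 and still passed the test (adjusted p = 0.0128). Both calls also held whichever of the 19 embryos was removed, with adjusted p of at most 0.0128 for Jarid2 and 0.027 for Ezh2. A further fit, chosen after seeing the data, kept embryos under 200 CPM of Ovgp1 by total counts, without TMM scaling. Restricting the fit in this way left out control embryo 10 and Ehmt2Mat embryos 1 to 4. It gave log2 fold changes of -1.41 for Jarid2 and -0.62 for Ezh2, neither of which passed the test in the 8 and 6 embryos kept (adjusted p = 0.0757 and 0.12), and 465 genes were called in place of 1099.

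Suz12, the scaffold of the PRC2 core, ranged from 368 to 1485 CPM in controls with a median of 735 CPM. In Ehmt2Mat it ranged from 202 to 879 CPM with a median of 516 CPM. Control embryos 5, 8 and 9, with 1250, 1485 and 1307 CPM, were above every Ehmt2Mat embryo, and 9 of 10 Ehmt2Mat embryos were below the control median. The log2 fold change was -0.74 ± 0.26 (SE, interval -1.28 to -0.20), at an unadjusted p of 0.00894 in edgeR. Suz12 passed the threshold when DESeq2 was used (adjusted p = 0.0286), when genes needed 10 counts in every embryo (0.0339), and in edgeR without control embryo 1 (0.0362) or without Ehmt2Mat embryo 10 (0.0312). In simulated data drawn with edgeR's own estimates of spread, 18.3% of DESeq2 calls and 3.53% of edgeR calls were false. Whether these shares hold for the embryos was not tested. In the embryos under 200 CPM of Ovgp1 the log2 fold change of Suz12 was -0.49 (adjusted p = 0.415). It shares 178 exon bases with the opposite-strand gene Gm26563, which had mean levels of 8.86 and 4.91 CPM.

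Eed, which binds methylated H3K27, and Ezh1, the methyltransferase paralogue associated with cells that no longer divide, did not follow this order. Eed had medians of 210 CPM (range 110 to 295) in controls and 173 CPM (113 to 302) in Ehmt2Mat, with almost the same range in both groups (log2 fold change -0.18 ± 0.22 SE, adjusted p = 0.684). Ezh1 had medians of 39.9 CPM (1.08 to 108) and 49.6 CPM (12.2 to 108), and 7 of 10 Ehmt2Mat embryos were above the control median (log2 fold change 0.42 ± 0.45, adjusted p = 0.643). The interval of Ezh1, from -0.52 to 1.35, allows more than a doubling as well as a decrease.

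None of the PRC1 subunits was called. Rnf2, the main H2A ubiquitin ligase of early embryos, had a median of 319 CPM (104 to 472) in controls and 229 CPM (165 to 382) in Ehmt2Mat. The Ehmt2Mat embryos lay, in 9 of 10 cases, below the control median, with a log2 fold change of -0.42 ± 0.21 (SE, adjusted p = 0.239). Its paralogue Ring1 was scarce, with medians of 6.99 CPM (2.19 to 29.7) and 12.0 CPM (0.364 to 15.9) and a log2 fold change of -0.01 ± 0.54 (adjusted p = 0.995). Ring1 lies 0.874 Mb from Ehmt2 on chromosome 17.

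Bmi1 had the highest coefficient of variation of the subunits in controls (105%), from 18.1 to 286 CPM around a median of 46.8 CPM, and ran from 17.3 to 152 CPM around a median of 78.7 CPM in Ehmt2Mat. Its fitted log2 fold change was negative (-0.17 ± 0.47, adjusted p = 0.883) while its median and its mean of log2(CPM + 1) were higher in Ehmt2Mat, so these data give Bmi1 no direction. Pcgf6 had medians of 251 CPM (136 to 416) and 176 CPM (101 to 455), with 8 of 10 Ehmt2Mat embryos below the control median (log2 fold change -0.32 ± 0.26, adjusted p = 0.519). Rybp, an adaptor of variant PRC1, had medians of 10.3 CPM (5.90 to 37.3) and 19.6 CPM (12.6 to 27.1). All 10 Ehmt2Mat embryos were above the control median for Rybp, while 3 of 9 controls were above every Ehmt2Mat embryo, and the log2 fold change was 0.17 ± 0.35 (adjusted p = 0.841). Reads of Bmi1 and Rybp can be shared with near-identical copies: 16.7% of the 50-base windows of Bmi1 exons also occurred in another gene, nearly all in Gm5946, and 8.93% of those of Rybp occurred in Rybp-ps. For the other subunits this share was at most 5.82%, and for Jarid2 and Ring1 it was 0.

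Over the 10 subunits the median log2 fold change was -0.25, with 8 below 0, against -0.04 over all tested genes, of which 6154 of 11754 were below 0. The 8 include Ring1 (-0.01) and Bmi1 (-0.17), whose fitted sign changed with the embryo left out. For no subunit were the 2 groups without overlap, as against 0.519% of all tested genes. The coefficient of variation between embryos was lower in Ehmt2Mat than in controls for 8 of 10 subunits, among them Jarid2 (82% in controls, 25.3% in Ehmt2Mat), Rybp (66.9% and 23.0%) and Ezh2 (31.8% and 14.5%), and higher for Eed (32.3% and 35.2%) and Pcgf6 (36.1% and 54.5%). The same direction held for 64.5% of all tested genes, and neither share was tested.

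The zygotic genotype differed between the groups, and so the subunits were also compared within it. Between zygotic -/- and +/- embryos of Ehmt2Mat, edgeR called 0 of 10 subunits and 0.0% of 12195 genes, with 270 genes and no subunit at an unadjusted p under 0.05, and DESeq2 called 3 genes. Jarid2 averaged 146 ± 38.0 CPM (SD, n = 5) in -/- and 158 ± 42.5 CPM (SD, n = 5) in +/-. The interval of its log2 difference was -0.65 to 0.42. Ezh2 averaged 220 ± 35.3 and 223 ± 32.6 CPM, with an interval of -0.45 to 0.42. The widest departure from 0 was that of Ring1 (log2 difference 0.73, interval -0.85 to 2.30). All of these embryos had Ehmt2F/- mothers, so a difference between zygotic +/- and +/+ is not covered here.

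At the shared genotype +/-, 5 Ehmt2Mat were set against 3 control embryos, and edgeR called 0 of 10 subunits and 0.00746% of 13401 genes. At an unadjusted p under 0.05 there were 906 genes, 1 of them a subunit, and DESeq2 called 79 genes. Jarid2 was at 211, 307 and 320 CPM in the 3 controls and at 126, 127, 139, 175 and 226 CPM in Ehmt2Mat. A single Ehmt2Mat embryo reached the lowest control, and the log2 fold change was -0.84 ± 0.30 (SE, unadjusted p = 0.0166 in edgeR, adjusted p = 0.66). Ezh2 was at 210, 251 and 338 CPM in these controls and at 172, 218, 230, 231 and 262 CPM in Ehmt2Mat, and the groups overlapped (log2 fold change -0.28 ± 0.28, interval -0.88 to 0.33, adjusted p = 0.964). Suz12 was at 368, 495 and 735 CPM and at 202, 357, 583, 614 and 879 CPM, with no ordering of the groups (log2 fold change -0.04 ± 0.42, adjusted p = 0.997). Taking the spread from all 19 embryos, an alternative added after seeing the data, gave -0.81 for Jarid2 and -0.25 for Ezh2, and called 0 genes.

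Within the controls, 3 zygotic +/- embryos were compared with 6 +/+ embryos, again with 0 of 10 subunits and 0.0% of 12646 genes called, 572 genes and 1 subunit at an unadjusted p under 0.05, and 3 genes called by DESeq2. The log2 differences of 9 of 10 subunits were below 0, where the median over all tested genes was -0.03. The subunits were measured in the same embryos and are not independent, and this count was not tested. Suz12 averaged 533 ± 187 CPM in +/- and 1000 ± 398 CPM in +/+ (log2 difference -0.89 ± 0.38, unadjusted p = 0.0344, adjusted p = 1.0). Ezh2 averaged 266 ± 65.4 and 404 ± 107 CPM (log2 difference -0.58 ± 0.29) and Jarid2 279 ± 59.5 and 510 ± 423 CPM (-0.84 ± 0.61). Ezh1 was the exception, at 69.5 ± 33.4 CPM in +/- and 27.1 ± 16.5 CPM in +/+ (log2 difference 1.36 ± 0.70, interval -0.15 to 2.88). These comparisons share embryos with the main one, and with 3 controls a difference of the size found for Ezh2 is within their intervals. For Jarid2 the log2 fold change was -1.51 in the main comparison and -0.84 at zygotic +/-. The Jarid2, Ezh2 and Suz12 differences between Ehmt2Mat and Ehmt2Cntr may go with the mother's genotype or with the embryo's +/+ genotype. How much goes with each cannot be told apart beyond these values.

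**Figure D2:**
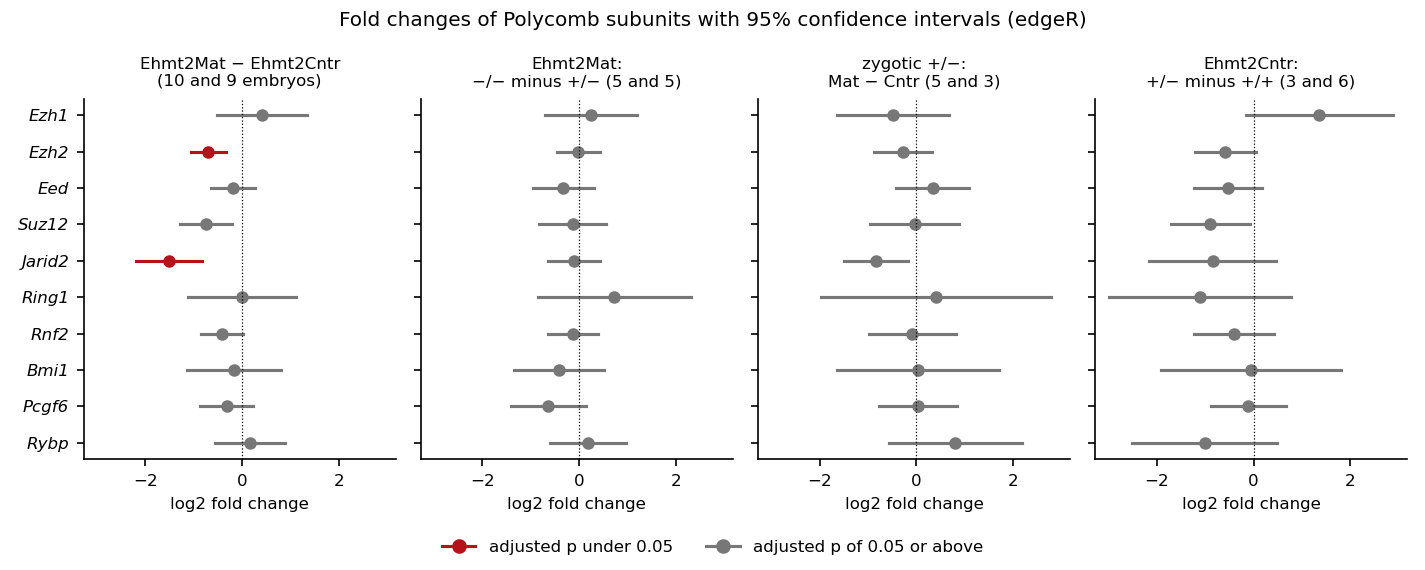
Log2 fold changes (points) with 95% confidence intervals (lines) of the 10 subunits in the 4 comparisons, with red for an adjusted p under 0.05. Red occurs for Ezh2 and Jarid2 in the comparison of 10 Ehmt2Mat with 9 Ehmt2Cntr embryos.

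Levels of different subunits can be compared per kb of exon, with the limit that the cDNA amplification favoured 3′ ends, so that long transcripts are underrated. In controls the mean level fell from Suz12 (171 CPM per kb) through Pcgf6 (115), Eed (93.5), Rnf2 (78.2), Ezh2 (53.7), Jarid2 (44.6) and Bmi1 (23.7) to Ezh1 (5.54), Rybp (3.66) and Ring1 (3.09 CPM per kb). Neighbours in this order often swapped places: the order of Suz12 over Pcgf6, Pcgf6 over Eed, Eed over Rnf2, Ezh2 over Jarid2 and Rybp over Ring1 each held in 6 of 9 controls and that of Ezh1 over Rybp in 5, whereas Rnf2 exceeded Ezh2, and Bmi1 exceeded Ezh1, in 8 of 9. In Ehmt2Mat, Jarid2 (15.7 CPM per kb) stood below Bmi1 (21.1 CPM per kb), an order that held in 8 of 10 embryos. Of each pair of paralogous enzymes, Ezh2 and Rnf2 were the abundant ones, and Ezh1 and Ring1 the scarce ones, in both groups. Among all tested genes, the level of Jarid2 per kb went from the 87.1 percentile in controls to the 70.3 percentile in Ehmt2Mat and that of Ezh2 from the 89.4 to the 83.2 percentile.

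**Figure D3:**
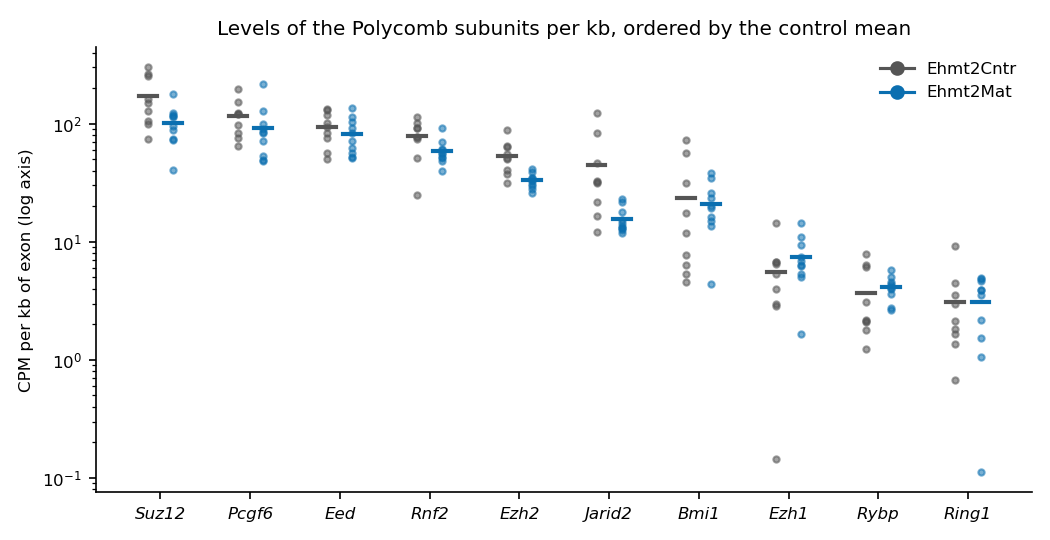
Level of each subunit in CPM per kb of exon (log axis) in the 9 Ehmt2Cntr (grey) and 10 Ehmt2Mat (blue) embryos, with bars for the group means and genes ordered by the control mean. The control means run from 171 CPM per kb for Suz12 to 3.09 CPM per kb for Ring1.

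The genes most like the 2 called subunits were looked up among all 11754 tested genes, by the Pearson correlation of log2 CPM over the 19 embryos after removal of each group's mean. For Ezh2 these were Ivns1abp (r = 0.883) and Cnot1 (r = 0.82), and for Jarid2 they were Cln3 (r = 0.838) and Bhmt2 (r = 0.831). They are given as descriptions, since the genes of 1 embryo share its library and depth.

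The remaining Polycomb genes were listed by role, and 41 of 45 passed the filter. Of these, 2 were called, both lower in Ehmt2Mat, and 21 of 41 had log2 fold changes below 0 (median -0.02, against -0.04 over all genes). A count of 2 of 41 is no larger a share than the 4.98% of all tested genes called lower. Rbbp4, a histone-binding subunit of PRC2 and other complexes, fell from a control median of 53.0 CPM to 26.4 CPM in Ehmt2Mat (log2 fold change -1.12 ± 0.35 SE, adjusted p = 0.0455). All 10 Ehmt2Mat embryos were under the control median. This call was lost when any 1 embryo was left out, apart from control embryos 1, 2 and 10 and Ehmt2Mat embryo 1, with adjusted p up to 0.11. E2f6, the DNA-binding factor of the Pcgf6 complex, fell from a median of 37.1 to 9.48 CPM (log2 fold change -1.50 ± 0.43, adjusted p = 0.0287), with 7 of 10 Ehmt2Mat embryos below every control. Its call was lost without control embryo 1 (adjusted p = 0.0519), control embryo 8 (0.0508) or Ehmt2Mat embryo 4 (0.0508). In the embryos under 200 CPM of Ovgp1 neither passed the test, with log2 fold changes of -1.53 for Rbbp4 (adjusted p = 0.0603) and -1.49 for E2f6 (adjusted p = 0.101).

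Among the PRC2 accessory genes, Aebp2 and Mtf2, which steer PRC2 to its sites, had log2 fold changes of -0.62 and -0.73 without passing the test (adjusted p = 0.102 and 0.104), and of 8 tested genes in this role 6 were below 0. Of 9 tested canonical PRC1 genes 6 were above 0 and none was called. Among them Phc2 had a log2 fold change of 1.07, and of the CBX readers of H3K27 methylation Cbx7 had -0.94 and Cbx8 1.78 (adjusted p = 0.121, 0.2 and 0.203). None of the 3 tested PCGF genes beyond the subunits above was called, with Pcgf5 at -0.63 (adjusted p = 0.167). Apart from E2f6, 10 tested variant PRC1 genes were not called, among them the Rybp paralogue Yaf2 (-1.04, adjusted p = 0.17) and Kdm2b, which binds CpG islands (0.41, adjusted p = 0.197). Genes listed with the removal of these marks were not called either. Among those listed for H2A deubiquitination, Mbd5, not itself such an enzyme, had a log2 fold change of 1.21 (adjusted p = 0.0743). The H2A deubiquitinase Usp16 had 0.17 (0.576), and the H3K27 demethylases Kdm6a and Kdm6b had 0.02 and -0.47 (0.982 and 0.667).

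Known Polycomb target genes were mostly below the filter, 14 of 64 being tested. Of these, 2 were called, both lower, while 8 of the 14 had log2 fold changes above 0 (median 0.39), beside 9.35% of all tested genes called and 4.98% called lower. Gata6, a transcription factor of primitive endoderm, fell from a control median of 646 CPM to 108 CPM (log2 fold change -1.85 ± 0.39 SE, adjusted p = 0.00409), with 8 of 10 Ehmt2Mat embryos below every control. Gab1, a signalling adaptor whose maternal allele is silenced by oocyte H3K27me3, fell from 59.7 to 34.0 CPM (log2 fold change -1.11 ± 0.35, adjusted p = 0.0436). The Gab1 call was lost when any 1 embryo was left out, apart from control embryos 1 and 10 and Ehmt2Mat embryos 4 and 7, with adjusted p up to 0.0983. Gata6 passed the test in every such fit. In the embryos under 200 CPM of Ovgp1, Gata6 still passed (log2 fold change -1.33, adjusted p = 0.0415) and Gab1 did not (-1.04, adjusted p = 0.149). Of the other genes imprinted in this way, Jade1 had -0.67 and Smoc1 1.69 (adjusted p = 0.426 and 0.343). The developmental regulators Gata4 and Hand1 had 0.67 and -0.59 (adjusted p = 0.0667 and 0.251). Cdx2, Foxa2, T and Lhx2 among others did not pass the filter and were not tested. Cdx2 was at 0 in the median embryo of both groups, and reached 33.1 CPM in the highest control and 1.56 CPM in the highest Ehmt2Mat embryo.

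**Figure D4:**
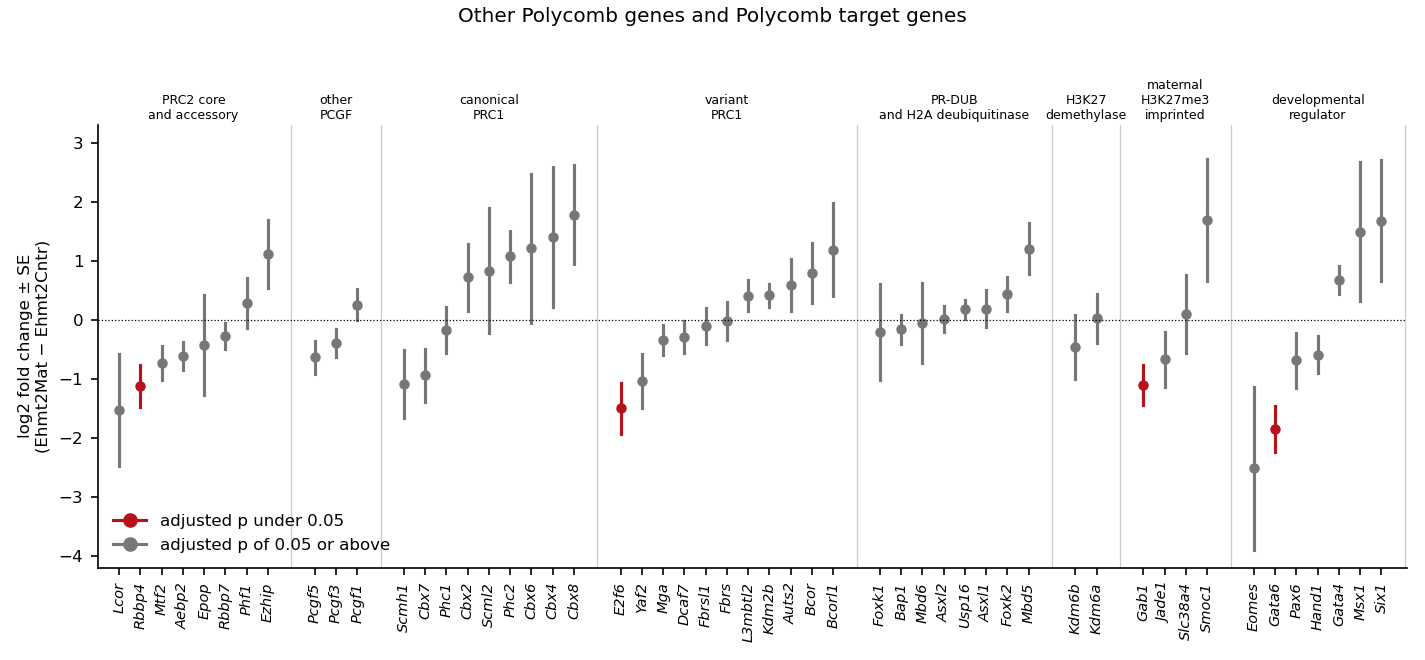
Log2 fold changes (points) ± SE (lines) between Ehmt2Mat and Ehmt2Cntr of the 41 other Polycomb genes and 11 of the target genes that passed the filter (4 imprinted genes and 7 developmental regulators), grouped by role, with red for an adjusted p under 0.05. Red occurs for Rbbp4, E2f6, Gab1 and Gata6, all below 0.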

How the data were processed

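RNA of single embryos had been amplified with a 3′-biased protocol and sequenced as single-end 50 bp reads. The authors deposited raw counts per Ensembl gene, without normalization. The file headers record featureCounts 1.5.0 on exons (Ensembl release 82, GRCm38), with an overlap of at least 10 bases, no use of strand, and multi-mapping and multi-gene reads kept. The submitters' processing notes also name TopHat2 and DESeq2. The aligner behind the deposited counts is not given in the sources used here. Amplification without molecular identifiers means that depth limits describe counting error only, and that p-values measure the spread between single embryos. The main comparison is by the mother's genotype, but how many females gave the embryos, and which embryos were littermates, is unknown here. Every embryo was treated as independent, so the p-values do not account for differences between mothers, and these were not tested.

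From these counts, genes were filtered by edgeR's default on low counts and tested with edgeR 4.0.16 (R 4.3.3) after TMM normalization, by the quasi-likelihood test over the whole table, without covariates, with a threshold of 0.05 on Benjamini-Hochberg adjusted p-values. CPM were scaled by TMM, except for the limit of 200 CPM on Ovgp1, which used total counts. Single subunits were also compared by exact two-sided permutation on log2(CPM + 1). The alternatives were RLE normalization, DESeq2 1.42.0, no filter, a replicate block by embryo number, a minimum of 10 counts in each embryo, a pseudocount of 0.5, and each embryo left out in turn. A fit to embryos under 200 CPM of Ovgp1, a fit of all 19 embryos in 4 genotype groups and a replicate block at zygotic +/- were added after seeing the data. The subunits, gene lists and motifs were chosen with earlier results of these data known. Named genes were the 10 subunits, up to 3 genes per role by smallest adjusted p, and the 2 most similar genes per called subunit. The target genes listed as below the filter were chosen after their values were seen. Some of the target genes are not reported here. In simulated data for the main comparison (11217 genes), edgeR recovered 24% of genes changed by 1 and 58% of those changed by 2 on the log2 scale. DESeq2 recovered 33% and 65%, but 18.3% of its calls were false, against 3.53% for edgeR.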

Additional observations from a re-analysis of the deposited data

Results flagged for a closer look

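In 24 sets of values (the 10 subunits, Ehmt2 and Ehmt1 in each group), 4 values stood apart from the rest of their group. This was judged by Dixon's criterion on the log2(CPM + 1) scale, which chance alone gives in about 1 of 20 independent sets. The sets here share the same embryos and are not independent. Ezh1 was at 1.08 CPM (12 counts) in control embryo 5, where the next control had 21.2 CPM. The other 3 came from Ehmt2Mat embryo 3, which had the lowest total count (8231646) and the highest Ovgp1 level (2799 CPM): Ezh1 at 12.2 CPM against 37.8 CPM in the next embryo, Ring1 at 0.364 CPM (3 counts) against 3.45 CPM, and Bmi1 at 17.3 CPM against 53.6 CPM. Without Ehmt2Mat embryo 3 the log2 fold changes were 0.53 for Ezh1, 0.13 for Ring1 and -0.05 for Bmi1, and without control embryo 5 that of Ezh1 was 0.25, none of them passing the test. The part in these values of depth, or of the source of the Ovgp1 reads, was not tested.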

How the results depend on the processing

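The calls of Jarid2 and Ezh2 held under RLE normalization, DESeq2, no filter and at least 10 counts in every embryo, and both were lost in the embryos under 200 CPM of Ovgp1, where 0 subunits, 0 of the wider Polycomb genes, 1 target gene and 465 genes in all were called. Fewer embryos were tested there, and the cause of the loss was not tested further. Embryo numbers did not pair the samples: over 9 shared numbers the correlation of deviations from the group means was between -0.156 and 0.0856. With the number as a replicate block, 1 subunit was called (Jarid2, adjusted p = 0.0456; Ezh2 had a log2 fold change of -0.62 and an adjusted p of 0.0575), 1 wider Polycomb gene, 1 target gene and 699 genes in all. Suz12 had an adjusted p of 0.0986 with this block. At zygotic +/-, where embryo numbers 3 and 10 occur in both groups, a replicate block added after seeing the data called 0 subunits and 4 genes in all. No paired analysis was possible because no embryo number is shared between the zygotic genotypes within Ehmt2Mat or within the controls. With no filter 1 wider Polycomb gene was called. DESeq2 called 1775 genes in the main comparison, 3 between -/- and +/- Ehmt2Mat embryos, 79 between groups at zygotic +/- and 3 between the control genotypes. At zygotic +/- the count of all genes was 5 without a filter, 0 with 10 counts in every embryo and 0 with the spread of all 19 embryos. Leaving out each embryo in turn gave 2 to 3 subunits, 0 to 2 wider genes, 1 to 3 target genes and 884 to 1262 genes in all. It gave 0 to 7 genes at zygotic +/- and 0 to 1 between the control genotypes. Jarid2 ranged from -1.63 to -1.14 and Ezh2 from -0.77 to -0.58. The fitted sign of Ring1 and Bmi1, neither called, changed with the embryo left out (-0.14 to 0.39 and -0.33 to 0.25). The lowest counts of a subunit in any embryo were 3 for Ring1 and 12 for Ezh1, which limits the precision there.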
